A study of Mus musculus with 9 samples.

Results

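The translation initiation and elongation factors were read in mouse microglia, in which each gene was taken by its symbol. Genes whose symbol began with Eif1 to Eif6, Eef1 or Eef2 were members, the eIF2 kinases (Eif2ak) and symbols marked as pseudogenes were left out, and 60 of the 23238 gene symbols in the count tables met the rule. The rule uses the symbols alone, and it was set with earlier results of these data known. Microglia, sorted as brain cells positive for CD45, CD11b and P2ry12, came from wild-type C57BL/6N female mice, those given an injection receiving it at 12 weeks of age, and 9 libraries of 3′ mRNA reads fell into 3 groups of 3, with 3 mice pooled in each library. Normal mice had no treatment. NMO mice had received NMO-IgG, antibody from patients with neuromyelitis optica, together with human complement into the striatum, and were sampled at day 1. NMO+CL mice had in addition received clodronate liposomes, which deplete circulating phagocytes, into the peritoneum 6 h before that injection. No group with control IgG or empty liposomes is part of the data used here, and the effects of the injection, the antibody and the complement in NMO mice, or of clodronate and its liposomes in NMO+CL mice, cannot be told apart. The 3 comparisons also share their libraries, so their values are set side by side and are not separate evidence.

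Translation starts when the eIF2 complex brings the initiator methionine tRNA to the small ribosomal subunit, which eIF3 and the eIF1 and eIF5 proteins hold in a state ready to scan an mRNA. The eIF4F complex, made of the cap-binding protein eIF4E, the helicase eIF4A and the scaffold eIF4G, loads the mRNA, and the 4E-binding proteins compete with eIF4G for eIF4E. Once the subunits have joined, the eEF1 complex delivers aminoacyl tRNAs, eEF2 moves the ribosome along by a codon, and the kinase eEF2K inactivates eEF2 by phosphorylation. In cells that are activated or grow, protein synthesis is set in part by the amount and the phosphorylation of these factors, and only mRNA was measured here.

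The libraries held 5788234 to 7837219 counts, of which the ribosomal RNA gene Rn45s took 16 to 31.0%. Levels are given as CPM, the counts of a gene relative to all counts of its library after scaling by trimmed means (TMM), and a gene is called where the edgeR quasi-likelihood test gave a Benjamini-Hochberg adjusted p under 0.05 over the 12292 genes tested. Of the 60 members, 57 had enough counts to be tested. Eif3j1 had 0 counts in all 9 libraries, Eif4e1b had 15 counts, all of them in NMO replicate 2, and Eif2s3y, which lies on the Y chromosome, had 25 counts in NMO replicate 3, 5 in NMO+CL replicate 1, 1 in NMO+CL replicate 3 and 0 in the other libraries. Other Y-linked genes also had counts in these pools of female mice, with Ddx3y at 39 and 20 counts in Normal replicates 1 and 3. The p-values measure the spread between pools of mice.

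Most translation factor mRNAs stood higher in the microglia of injected mice. Against Normal, 3 members were called higher in NMO and 20 in NMO+CL mice. Calls over all tested genes also went up, from 0.472% to 4.79% called higher. Between the injected groups edgeR called 0 members. The mRNA of the eEF2 kinase stood lower in both injected groups and that of the scaffold paralogue eIF4G3 lower in NMO+CL mice. Summed over the members, translation factors took 0.497%, 0.601% and 0.631% of all counts in the 3 Normal libraries, 0.785%, 0.896% and 0.813% in the NMO libraries and 0.926%, 0.989% and 0.833% in the NMO+CL libraries. The means were 0.576% ± 0.0706 (SD, n = 3), 0.831% ± 0.0574 and 0.916% ± 0.0785. Each Normal library lay under every NMO and NMO+CL library, whereas the NMO and NMO+CL libraries overlapped. Without the counts of Rn45s they did not overlap, at 1.00%, 1.07% and 1.01% in NMO and 1.26%, 1.25% and 1.09% in NMO+CL libraries. In a bulk sample, fewer cells of a type and less RNA per cell cannot be told apart.

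In NMO against Normal, 3 members rose and 1 fell at adjusted p under 0.05, namely Eef1g, Eif2s1 and Eif5a upward and Eef2k downward. Over all tested genes 0.472% were called higher and 0.0244% lower. The log2 fold change was above 0 for 48 of the 57 tested members against 49.3% of all tested genes and under 0 for 9 against 50.7%, and its median was 0.47 against -0.01. The libraries of both groups did not overlap for 25 members that were higher, against 9.21% of all tested genes, and for 1 that was lower, against 8.2%. At the looser thresholds of 1.5-fold and unadjusted p under 0.05, 18 members were higher, against 5.2% of all tested genes, and 1 was lower, against 2.77%. The number of calls moved with single libraries. It was 1 without any of the 3 Normal libraries and without NMO replicate 1 or 2, 3 without NMO replicate 3, and 2 without NMO+CL replicate 2, which shares the estimate of the spread.

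In NMO+CL against Normal, 20 members rose and 2 fell, where 4.79% of all tested genes were called higher and 4.43% lower. The log2 fold change was above 0 for 50 of the 57 members against 49.4% of all tested genes and under 0 for 7 against 50.6%, with a median of 0.60 against -0.01. The groups did not overlap for 33 members that were higher, against 13.8% of all tested genes, and for 3 that were lower, against 14.9%. At 1.5-fold and unadjusted p under 0.05, 27 were higher, against 9.9%, and 3 lower, against 10.2%. The number of calls was 10 without NMO+CL replicate 2 and 13 without Normal replicate 1 or without Normal replicate 3. In each of the 15 alternative analyses 10 genes stayed called, which were Eef1g, Eef2, Eef2k, Eif1a, Eif2s1, Eif2s2, Eif3a, Eif4ebp1, Eif4g1 and Eif5a, and the other 12 lost the call in at least 1 of them.

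Between the injected groups, NMO+CL against NMO, 0 members were called by edgeR, where 0.529% of all tested genes were called higher and 1.07% lower. At unadjusted p under 0.05 there were 7 members (12.3%), against 12.4% of all tested genes. DESeq2 called 2 (3.51%), Eif4g1 higher and Eif5a2 lower, where it called 3.78% of all tested genes, and limma-voom called 0, where it called 1.49%. The log2 fold change was above 0 for 37 members against 49.7% of all tested genes and under 0 for 20 against 50.3%, with a median of 0.09 against -0.01. That median was 0.21 without NMO replicate 2 and 0.24 without NMO+CL replicate 3. The groups did not overlap for 9 members that were higher, against 7.89% of all tested genes, and for 3 that were lower, against 9.22%. Past 1.5-fold and unadjusted p under 0.05 were Eef1d, which was higher, against 4.09% of all tested genes, and Eif4g3 and Eif5a2, which were lower, against 6.65%. By each of these counts, the share of members that were higher lay above the share of all tested genes in both comparisons with Normal. In NMO+CL against NMO it lay above by sign (64.9% against 49.7%) and by lack of overlap (15.8% against 7.89%). It lay under the share of all tested genes there by edgeR calls (0% against 0.529%) and at the looser thresholds (1.75% against 4.09%).

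**Figure D1:**
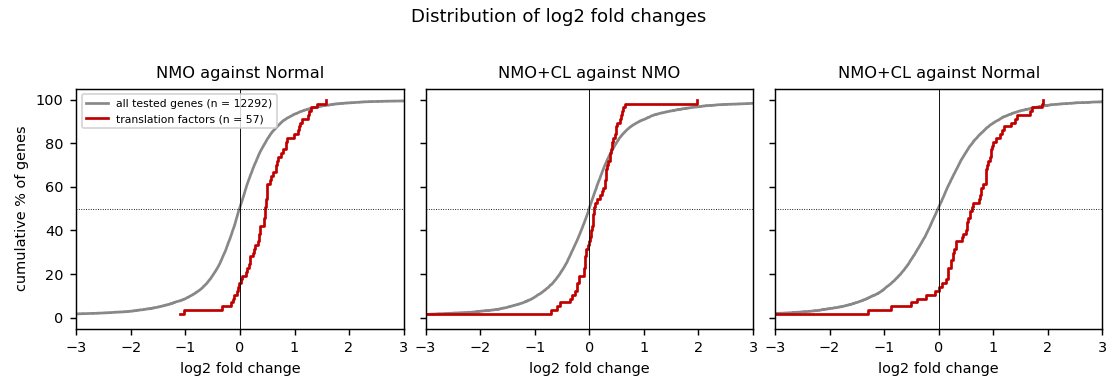
Cumulative percent of genes (vertical axis) at or under each log2 fold change (horizontal axis) for the 57 tested translation factors (red) and all 12292 tested genes (grey), 1 panel for each comparison, with a dotted line at 50%. The red line lies to the right of the grey over most of its range in both comparisons with Normal, with medians of 0.47 and 0.60, and near it in NMO+CL against NMO, with a median of 0.09.

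**Figure D2:**
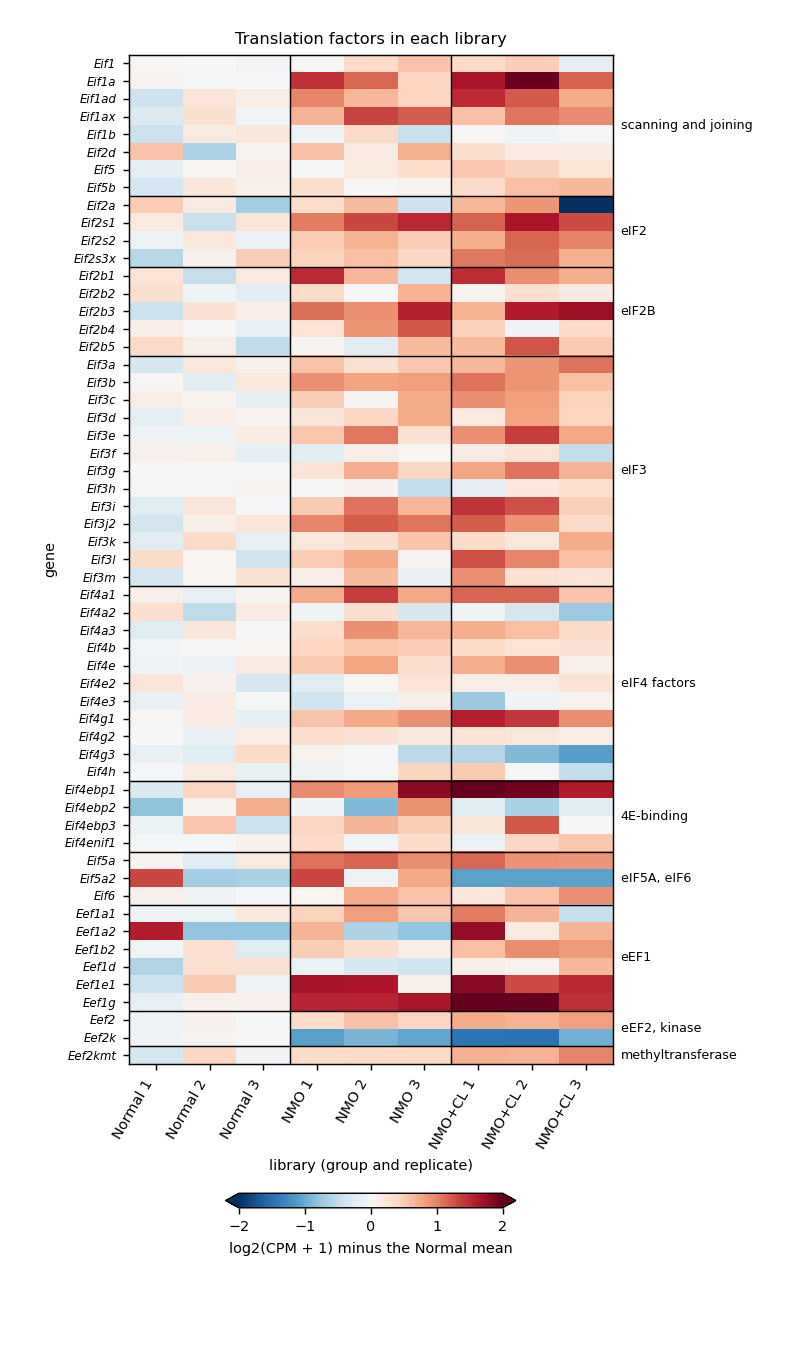
Log2(CPM + 1) of each tested translation factor in each of the 9 libraries minus its mean over the Normal libraries, with red for higher and blue for lower and the genes grouped by role. Eef2k is blue in all 6 libraries of injected mice, and Eef1g, Eif4g1, Eif4ebp1, Eif5a and Eif2s1 are red in all 6.

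Some promoters of these genes carry the letters CACGTG, the palindromic E-box read alike on both strands. The windows of 4 called genes are printed as examples, including the opposed pair Eef2 and Eef2k. The called genes Eif3a and Eif5a also carried the letters and are not printed. In the RefSeq promoters of GRCm38.p6, which run from 250 bases before to 50 bases after a start site, 46 members had an entry. The E-box was in 12 of the 46 (26.1%), in 11.8% of the 9328 tested genes with an entry and in 8.09% of all 27025 genes. It was in 5 of the 14 members with an entry that were called higher in NMO+CL against Normal (35.7%), in Eef2k, which was lower, and in 6 members that edgeR called in no comparison, namely Eif1b, Eif3f, Eif3k, Eif4e, Eif4h and Eif5a2. A gene counted if any of its promoters carried the E-box, as 1 of 3 did for Eef2k and 3 of 6 for Eif5a. The TOP letters, a start at C followed by C or T in each of the next 4 bases, were read in the same promoters. They stood in 2 of the 46 (4.35%), in 3.04% of the tested genes and in 0 of the 14. They were read only at the exact annotated start base, so a start annotated a base away could be missed, and Eef1g had no entry. These shares therefore cannot show that a gene lacks a TOP start. The windows of 30 bases are given 5′ to 3′ on the strand of the gene, with the E-box in capitals, and they lie at chr7:120842788-120842817 (plus strand) for Eef2k, chr10:81176576-81176605 (plus) for Eef2, chr11:69672595-69672624 (minus) for Eif4a1 and chr16:20672661-20672690 (plus) for Eif4g1.
Eef2k: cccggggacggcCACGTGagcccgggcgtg
Eef2: acccggcgccgtCACGTGacgcacccaacc
Eif4a1: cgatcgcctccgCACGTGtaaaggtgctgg
Eif4g1: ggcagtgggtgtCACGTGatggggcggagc
The first 3 windows lie before the gene as GENCODE annotates it, and that of Eif4g1 lies inside the annotated gene, before a start site further downstream. The letters were thus present in genes that rose, fell and were not called, and a match is a description of these windows only.

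Opposed changes lay in the elongation step that eEF2 drives. Eef2, which encodes the translocation factor (chromosome 10, 81176631 to 81182498, plus strand, mm10), had 475, 528 and 491 CPM in Normal, 643, 751 and 672 in NMO and 837, 808 and 882 in NMO+CL libraries. The 3 groups did not overlap and were ordered Normal, NMO, NMO+CL. Eef2 rose in NMO+CL against Normal by 0.76 ± 0.16 (log2, SE; adjusted p = 0.00494), and its differences in NMO against Normal (0.47, adjusted p = 0.274) and NMO+CL against NMO (0.29, adjusted p = 0.477) were not called, except that in NMO by DESeq2 (adjusted p = 0.044). Eef2k, which encodes the kinase that inactivates eEF2 (chromosome 7, 120842831 to 120907450, plus strand), had 117, 127 and 124 CPM in Normal, 56.8, 63.8 and 59.2 in NMO and 44.1, 43.3 and 62.6 in NMO+CL libraries. Every injected library thus stood lower than every Normal library, and NMO and NMO+CL libraries overlapped. Eef2k fell in NMO (log2 fold change -1.03 ± 0.22, adjusted p = 0.0479) and in NMO+CL against Normal (-1.29 ± 0.22, adjusted p = 0.00133). The NMO call held in 6 of 15 alternatives, with adjusted p up to 0.186, and was lost without any of the 3 Normal or 3 NMO libraries, without NMO+CL replicate 2, with library totals alone as scaling and with the replicate number as a block. The NMO+CL call held in all 15.

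A ratio of counts within a library does not depend on its scaling, and 3 such ratios were formed after the counts had been seen. Eef2 had 4.06, 4.17 and 3.97 counts for each Eef2k count in Normal libraries, 11.3, 11.8 and 11.3 in NMO libraries and 19.0, 18.7 and 14.1 in NMO+CL libraries. The mean ratio was 4.07 ± 0.0988 (SD, n = 3), 11.5 ± 0.253 and 17.2 ± 2.74, and no group overlapped another. In the exact permutation test (two-sided) each of the 9 ratio comparisons gave p = 0.1, the smallest that 3 against 3 allows, so that none can reach 0.05. Eef2kmt, which encodes a methyltransferase of eEF2, rose in NMO+CL against Normal by 0.77 ± 0.22 (adjusted p = 0.0347), from 65.2, 112 and 79.9 to 138, 136 and 166 CPM. Its 3′ end overlaps Alg1 on the opposite strand, and the strand setting of the counting is not given in the sources used here.

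**Figure D3:**
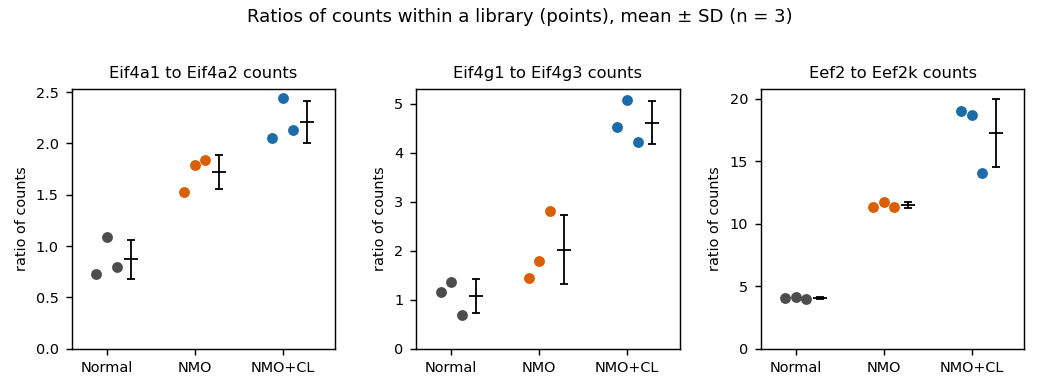
Ratio of counts within each library (points, vertical axis from 0) with mean ± SD of 3 libraries for Eif4a1 to Eif4a2, Eif4g1 to Eif4g3 and Eef2 to Eef2k, by group. No group overlaps another in any of the 3 panels, and the mean Eef2 to Eef2k ratio goes from 4.07 in Normal to 11.5 in NMO and 17.2 in NMO+CL.

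Among the eEF1 genes, 2 of 6 rose in NMO+CL against Normal, against 4.79% of all tested genes, and Eef1g had the larger change. Eef1g, the gamma subunit that holds the nucleotide exchange part of the complex together (chromosome 19, 8967041 to 8978479, plus strand), had 39.8, 47.9 and 47.6 CPM in Normal, 131, 131 and 142 in NMO and 190, 193 and 125 in NMO+CL libraries. The Normal libraries stood lower than all 6 others, and NMO and NMO+CL overlapped. Eef1g rose by 1.58 ± 0.22 in NMO (adjusted p = 0.00274) and by 1.91 ± 0.22 in NMO+CL against Normal (adjusted p = 3.98e-05), and both calls held in all 15 alternatives. Its last 500 bases share over 97% identity with 2 processed pseudogenes over 121 and 123 bases, and the authors counted reads with several alignments as well.

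The other genes of the group had smaller changes against Normal or were not called. Eef1b2, which encodes the exchange factor for eEF1A, rose in NMO+CL against Normal by 0.78 ± 0.20 (adjusted p = 0.0164), from 190, 243 and 168 to 299, 378 and 358 CPM, with 282, 251 and 218 in NMO. That call was lost without Normal replicate 1 or 3 or NMO+CL replicate 2, with adjusted p up to 0.0976. Eef1d, another exchange subunit, had 38.9, 73.4 and 73.2 CPM in Normal, 54.3, 47.5 and 45.0 in NMO and 64.2, 62.7 and 94.6 in NMO+CL. The NMO+CL libraries lay above the NMO libraries without a call (0.59, adjusted p = 0.394), and the 3′ end of Eef1d overlaps Naprt on the same strand. Eef1a1, the tRNA carrier itself, had 488, 488 and 609 CPM in Normal, 716, 937 and 762 in NMO and 1073, 840 and 380 in NMO+CL. NMO+CL replicate 3 was the lowest of all 9 libraries for Eef1a1, and none of its differences was called (adjusted p from 0.261 to 0.963). Without that library the difference of Eef1a1 in NMO+CL against Normal was called (0.86 in place of 0.53, adjusted p = 0.00847). Eef1e1, which encodes a protein of the tRNA synthetase complex despite its symbol, had 2.55, 5.87 and 3.53 CPM in Normal, 14.1, 13.6 and 4.16 in NMO and 15.8, 10.9 and 12.7 in NMO+CL, and its difference in NMO+CL against Normal was not called (1.71, adjusted p = 0.104).

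Of the start factors, the eIF2 complex that carries the initiator tRNA rose in 2 of its 3 subunits in NMO+CL against Normal, where 4.79% of all tested genes were called higher. Eif2s1, the alpha subunit on which stress kinases act (chromosome 12, 78861819 to 78887010, plus strand), had 28.5, 17.9 and 29.3 CPM in Normal, 51.3, 63.4 and 71.7 in NMO and 57.1, 78.7 and 62.6 in NMO+CL libraries. All 6 libraries of injected mice stood above the Normal libraries. Eif2s1 rose in NMO by 1.30 ± 0.28 (adjusted p = 0.0451) and in NMO+CL against Normal by 1.39 ± 0.28 (adjusted p = 0.00361). The NMO call held in 6 of 15 alternatives, with adjusted p up to 0.214, and was lost without any of the 3 Normal or 3 NMO libraries, without NMO+CL replicate 2, in limma-voom and with the replicate number as a block. The NMO+CL call held in all 15.

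Eif2s2, the beta subunit (minus strand of chromosome 2, 154871410 to 154892935), had 283, 352 and 278 CPM in Normal, 428, 491 and 424 in NMO and 500, 682 and 603 in NMO+CL libraries. The 3 groups did not overlap. The rise was called in NMO+CL against Normal (0.97 ± 0.18, adjusted p = 0.00232) and neither in NMO (0.56, adjusted p = 0.244) nor in NMO+CL against NMO (0.41, adjusted p = 0.349). Eif2s3x, the gamma subunit, had 11.5, 18.5 and 24.9 CPM in Normal and 37.2, 39.0 and 29.1 in NMO+CL, which was not called (0.94, adjusted p = 0.106).

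The exchange factor eIF2B, which recharges eIF2 with GTP, has 5 subunits, and 1 was called, higher in NMO+CL against Normal, where 4.79% of all tested genes were. Eif2b3 had 7.97, 13.8 and 12.3 CPM in Normal, 25, 21.8 and 34.1 in NMO and 18.7, 35.2 and 38.4 in NMO+CL libraries and rose in NMO+CL against Normal by 1.43 ± 0.39 (adjusted p = 0.0279). That call was lost without any of the 3 Normal libraries, without NMO+CL replicate 2 or 3 and in limma-voom. The log2 fold changes of Eif2b1, Eif2b2, Eif2b4 and Eif2b5 in NMO+CL against Normal were 1.15, 0.18, 0.28 and 0.81, with adjusted p from 0.143 to 0.831. Eif2b4 stood highest in the NMO group, with 45.6, 70.1 and 89.7 CPM against 41.3, 38.1 and 33.3 in Normal and 51.9, 35.6 and 49.3 in NMO+CL, and none of its differences was called (adjusted p from 0.26 to 0.668). Summed over its subunits, eIF2B stood at 118 ± 18.1 CPM in Normal libraries, at 182 ± 38.1 in NMO libraries and at 182 ± 14.2 in NMO+CL libraries (SD, n = 3), so that both injected groups had like means.

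The genes of eIF3, the large scaffold of the small subunit, formed the role with the most members. In NMO+CL against Normal 7 of the 13 tested genes rose and 0 fell, against 4.79% and 4.43% of all tested genes, the log2 fold change was above 0 for all 13, against 49.4%, and its median was 0.87. In NMO against Normal edgeR called 0 of the 13, and the median was 0.46. Among the eIF3 genes followed singly through the alternative analyses, DESeq2 called Eif3b in that comparison (adjusted p = 0.0358). The eIF3 genes together had 1193, 1401 and 1293 CPM in Normal, 1769, 1716 and 1823 in NMO and 2125, 2283 and 2117 in NMO+CL libraries, so that the 3 groups did not overlap. Eif3a, the largest subunit (minus strand of chromosome 19, 60761117 to 60790658), took the greatest part of that sum with 398, 580 and 530 CPM in Normal, 739, 614 and 718 in NMO and 779, 913 and 1058 in NMO+CL. It rose by 0.87 ± 0.19 in NMO+CL against Normal (adjusted p = 0.00603), a call that held in all 15 alternatives.

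The other 6 called eIF3 genes were Eif3b, Eif3c, Eif3e, Eif3g, Eif3i and Eif3l, with log2 fold changes of 0.88, 0.75, 1.06, 0.87, 1.13 and 0.96 in NMO+CL against Normal and adjusted p from 0.0131 to 0.033. For each of them the call was lost without NMO+CL replicate 2 and without at least 1 Normal library, with adjusted p up to 0.16. Eif3b had 50.5, 42.3 and 57.5 CPM in Normal, 94.4, 87.1 and 89.2 in NMO and 107, 92.8 and 76.1 in NMO+CL libraries. The injected groups overlapped for Eif3b, and both stood above Normal. Eif3g, which binds mRNA, had nearly equal levels in the Normal libraries, at 60.7, 61.4 and 61.6 CPM, and had 74.4, 102 and 82.3 in NMO and 107, 131 and 98.5 in NMO+CL. Eif3f and Eif3h, which share a protein fold in the core of the complex, had log2 fold changes of 0.01 and 0.13 in NMO+CL against Normal (adjusted p = 0.985 and 0.842). Eif3f had 103, 105 and 85.3 CPM in Normal, 83.0, 107 and 99.6 in NMO and 109, 118 and 69.2 in NMO+CL, 3 groups that overlapped. Eif3j2 had 26.9, 37.8 and 41.7 CPM in Normal, 69.5, 82.1 and 74.6 in NMO and 82.0, 66.1 and 46.0 in NMO+CL, with adjusted p of 0.0862 and 0.0523 against Normal in edgeR. Eif3j2 was not followed singly through the alternative analyses. Its last 500 bases are 99.8% identical to those of Eif3j1, so the 0 counts of Eif3j1 and the level of Eif3j2 cannot be assigned to either copy.

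Of the 8 scanning and joining factors, 2 rose in NMO+CL against Normal and 0 fell, against 4.79% and 4.43% of all tested genes, and the log2 fold change was above 0 for 7, against 49.4%. Eif1a (chromosome 18, 46597701 to 46616456, plus strand) and Eif1ax both encode the eIF1A protein type, which helps to place the initiator tRNA. Eif1a had 30.9, 28.9 and 29.6 CPM in Normal, 83.2, 67.6 and 40.2 in NMO and 95, 121 and 69 in NMO+CL libraries. The Normal libraries lay within a narrow range, all others stood higher, and NMO replicate 3 was the lowest of the injected libraries. Eif1a rose in NMO+CL against Normal by 1.67 ± 0.29 (adjusted p = 0.00135), and its difference in NMO was not called (1.10, adjusted p = 0.117) except without NMO replicate 3, with all genes that had a count and in DESeq2. Eif1ax had 9.88, 15.4 and 11.6 CPM in Normal, 19.9, 32.3 and 29.1 in NMO and 18.7, 26.4 and 24.3 in NMO+CL libraries. Both injected groups stood above Normal for Eif1ax without a call (1.14 and 0.91, adjusted p = 0.257 and 0.15). Eif1ad, which encodes a related protein, rose in NMO+CL against Normal by 1.19 ± 0.32 (adjusted p = 0.0258), from 15, 24.5 and 22.5 to 58.5, 48.6 and 34.7 CPM, and lost the call without Normal replicate 1 or 3 or without NMO+CL replicate 1 or 2. Eif5, the GTPase activator of eIF2, and Eif5b, which joins the subunits, had log2 fold changes of 0.42 and 0.53 in NMO+CL against Normal (adjusted p = 0.184 and 0.0974) and were not called, except Eif5b by DESeq2 (adjusted p = 0.0303). Eif5b overlaps Rev1 on the opposite strand at its 3′ end. Eif1 itself, the guard of start codon choice, had a log2 fold change of 0.35 in NMO and 0.27 in NMO+CL against Normal, with no call.

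Among the eIF4F genes, paralogues went apart. Eif4g1, the main scaffold (chromosome 16, 20668313 to 20692884, plus strand), had 251, 276 and 216 CPM in Normal, 368, 420 and 464 in NMO and 725, 661 and 468 in NMO+CL libraries. The 3 groups did not overlap, although NMO+CL replicate 3 was just above NMO replicate 3. Eif4g1 rose in NMO+CL against Normal by 1.32 ± 0.20 (adjusted p = 4.13e-04), a call that held in all 15 alternatives. Its differences in NMO (0.75, adjusted p = 0.113) and in NMO+CL against NMO (0.57, adjusted p = 0.187) were not called in the edgeR test. DESeq2 called both, and the NMO difference was also called with all genes that had a count. Eif4g3, a second scaffold of the same kind (chromosome 4, 137993022 to 138208508, plus strand), had 216, 203 and 317 CPM in Normal, 253, 234 and 165 in NMO and 160, 130 and 111 in NMO+CL libraries. All NMO+CL libraries stood lower than the 6 others. Eif4g3 fell in NMO+CL against Normal (-0.87 ± 0.23, adjusted p = 0.0223), was lower without a call in NMO+CL against NMO (-0.70, adjusted p = 0.163), and lost the call against Normal without Normal replicate 3 or NMO+CL replicate 2 or 3. Eif4g2, which encodes a scaffold that does not bind eIF4E, had log2 fold changes of 0.28, -0.06 and 0.22 in the 3 comparisons and was not called. The mean ratio of Eif4g1 to Eif4g3 counts was 1.07 ± 0.349 for Normal, 2.02 ± 0.707 for NMO and 4.61 ± 0.438 for NMO+CL libraries (SD, n = 3).

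Of the helicase genes Eif4a1 and Eif4a2, 1 was called higher in NMO+CL against Normal, against 4.79% of all tested genes. Eif4a1 (minus strand of chromosome 11, 69666936 to 69672423) had 112, 92.7 and 108 CPM in Normal, 175, 271 and 177 in NMO and 235, 233 and 155 in NMO+CL libraries. It rose in NMO+CL against Normal by 1.00 ± 0.23 (adjusted p = 0.00934), a call lost without Normal replicate 2 or NMO+CL replicate 2, and missed the threshold in NMO (1.00 ± 0.23, adjusted p = 0.0602), where it was called without NMO+CL replicate 3, with library totals alone, with all genes that had a count and in DESeq2. Eif4a2 had 153, 85.2 and 136 CPM in Normal, 115, 151 and 96.5 in NMO and 114, 95.4 and 72.5 in NMO+CL, with log2 fold changes of -0.05 and -0.41 against Normal and no call (adjusted p = 0.99 and 0.403). The 3′ end of Eif4a2 overlaps Rfc4 on the opposite strand. Eif4a1 had 0.731, 1.09 and 0.793 counts for each Eif4a2 count in Normal, 1.53, 1.79 and 1.84 in NMO and 2.06, 2.44 and 2.13 in NMO+CL libraries, and no group overlapped another. The cap-binding protein gene Eif4e had 33.8, 32.7 and 40.2 CPM in Normal, 51.0, 61.9 and 44.7 in NMO and 59.5, 67.9 and 38.3 in NMO+CL, and was not called (adjusted p from 0.181 to 0.965). Eif4b, a cofactor of the helicase, had 51.6, 54.5 and 55.2 CPM in Normal, 73.0, 78.4 and 77.2 in NMO and 69.6, 64.6 and 65.8 in NMO+CL, 3 groups without overlap whose differences were not called (adjusted p from 0.46 to 0.8).

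Of the 4 genes that restrain eIF4E, 1 was called higher in NMO+CL against Normal, against 4.79% of all tested genes. Eif4ebp1, the classical 4E-binding protein (chromosome 8, 27260329 to 27276674, plus strand), had 12.7, 21.7 and 14.1 CPM in Normal, 31.4, 29.3 and 56.8 in NMO and 68.6, 62.7 and 49.3 in NMO+CL libraries. The 6 injected libraries stood above Normal. Eif4ebp1 rose in NMO+CL against Normal by 1.89 ± 0.34 (adjusted p = 0.00154), and its difference in NMO was not called (1.27, adjusted p = 0.117) except with all genes that had a count and in DESeq2. Eif4ebp2, its paralogue, ranged from 40.0 to 117 CPM within the Normal group and from 37.8 to 132 within the NMO group, and was not called.

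Eif5a, whose protein carries the hypusine residue and helps ribosomes past difficult stretches (minus strand of chromosome 11, 69916714 to 69921958), had 108, 86.8 and 117 CPM in Normal, 220, 233 and 196 in NMO and 230, 194 and 190 in NMO+CL libraries. The injected groups overlapped and both stood above Normal. Eif5a rose in NMO by 1.06 ± 0.19 (adjusted p = 0.0164) and in NMO+CL against Normal by 0.98 ± 0.19 (adjusted p = 0.00342). The NMO call held in 10 of 15 alternatives and was lost without any of the 3 Normal libraries and without NMO replicate 1 or 2, with adjusted p up to 0.126. Its paralogue Eif5a2 had 27, 2 and 2 counts in Normal, 34, 8 and 16 in NMO and 0 in each NMO+CL library, where 3 counts is the limit that a count of 0 allows. The difference of Eif5a2 was not called by edgeR (adjusted p = 0.204 and 0.118 against NMO and Normal), and DESeq2 called it lower against NMO. Eif6, which keeps the large subunit from joining early, had a log2 fold change of 0.60 in NMO+CL against Normal (adjusted p = 0.201).

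**Figure D4:**
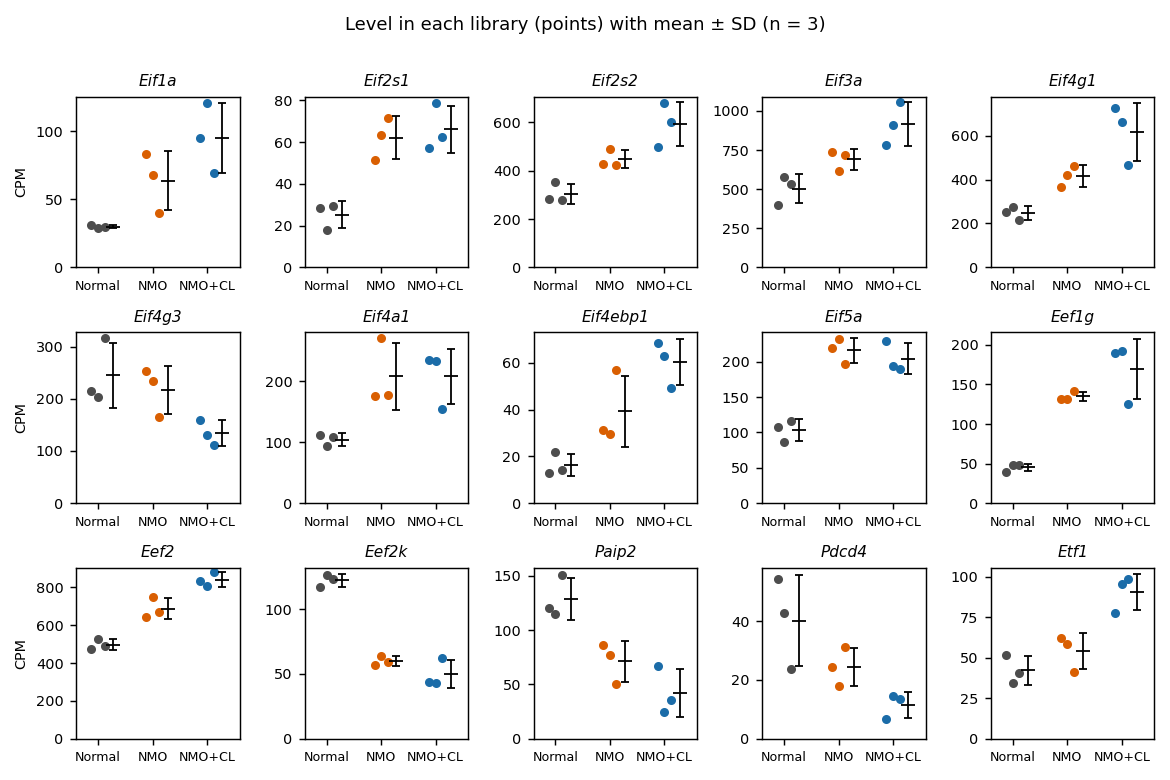
CPM in each library (points, vertical axes from 0) with mean ± SD of 3 libraries for 12 translation factors and for the translation genes Paip2, Pdcd4 and Etf1, by group. Eef2k goes from 117 to 127 CPM in Normal to 43.3 to 63.8 CPM in the 6 injected libraries, and Eef1g from 39.8 to 47.9 to at least 125 CPM.

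**Figure D5:**
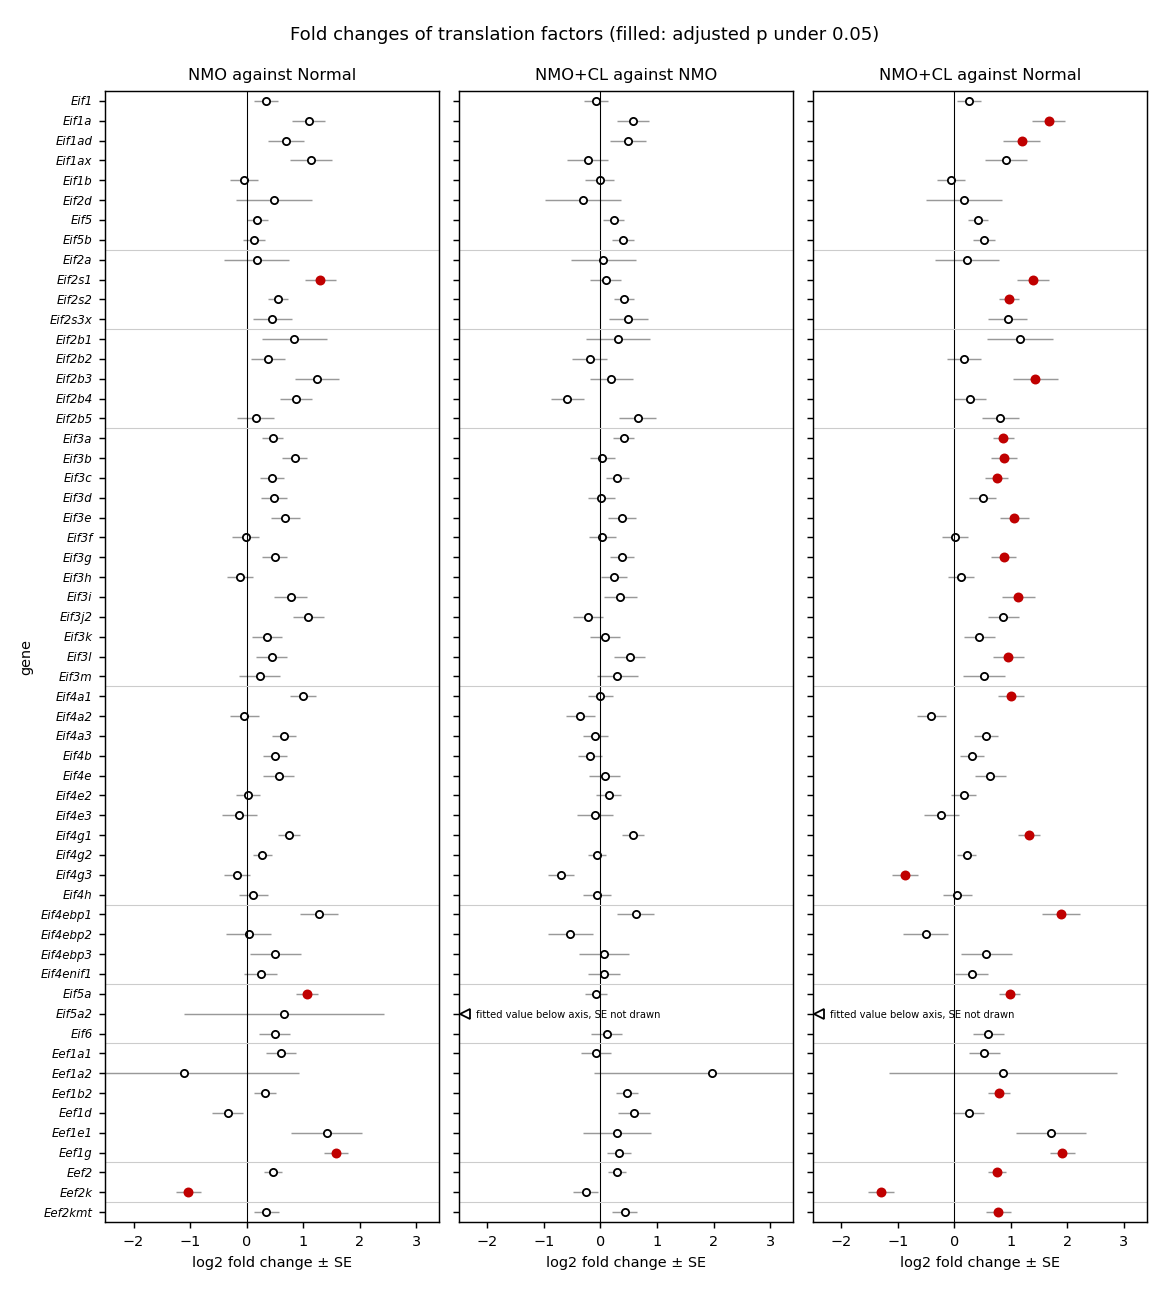
Log2 fold change ± SE (horizontal axis) of each tested translation factor in the 3 comparisons, with genes grouped by role and filled red points for adjusted p under 0.05. The panels hold 4, 0 and 22 red points, and triangles mark Eif5a2, whose fitted value with 0 counts in NMO+CL is off the axis and is no measure of size.

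A list of 53 further translation genes, outside the members and all tested, was read in the same fit. In NMO against Normal and in NMO+CL against NMO 0 of the 53 were called by edgeR. At unadjusted p under 0.05 there were 7 (13.2%) in each, against 9.51% and 12.4% of all tested genes. DESeq2 called 0 and 1 (Mtif3, higher), and limma-voom called 0 in both. In NMO+CL against NMO with all genes that had a count, edgeR called 2 (3.77%), Gtpbp2 and Mtif3, against 2.87% of all tested genes. Without NMO+CL replicate 1 it called Paip2 in that comparison (adjusted p = 0.0337). Of the 53, 5 rose and 4 fell in NMO+CL against Normal, against the 4.79% and 4.43% of all tested genes given above. Paip2, which keeps the poly(A)-binding protein from the scaffold, had 120, 115 and 151 CPM in Normal, 86.1, 77.3 and 50.4 in NMO and 67.3, 24.5 and 35.2 in NMO+CL libraries. Paip2 fell in NMO+CL against Normal (-1.60 ± 0.32, adjusted p = 0.00359), which held in all 15 alternatives. Pdcd4, an inhibitor of eIF4A, had 54.2, 42.6 and 23.6 CPM in Normal and 6.57, 14.6 and 13.6 in NMO+CL and fell (-1.79 ± 0.41, adjusted p = 0.0101), a call lost without Normal replicate 1.

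The other 2 that fell were Impact, which limits the eIF2 kinase GCN2 (-1.58, adjusted p = 0.037), and Gfm2, a mitochondrial factor (-0.79, adjusted p = 0.0495), whose counts are uncertain because the strand setting is not known. The 5 that rose were the release factor Etf1 (1.10, adjusted p = 0.00985), the ribosome recycling factor Abce1 (0.99, adjusted p = 0.0218), Larp4 (0.76, adjusted p = 0.0278), and Dph1 and Dph2 (1.84 and 2.52, adjusted p = 0.0401 and 0.0421), whose products make the diphthamide residue of eEF2. The 3′ end of Dph1 is shared with Ovca2. Of these 9, the 8 other than Paip2 lost the call in at least 1 of 15 alternatives.

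The sorted cells carried the microglial markers in every library, and these moved with the groups. The 9 microglial genes summed to 33319 to 37838 CPM in Normal, 28640 to 33456 in NMO and 19432 to 27061 in NMO+CL libraries. In NMO against Normal, NMO+CL against NMO and NMO+CL against Normal, 1, 3 and 6 of the 9 were called lower, with 0 called higher. Of all tested genes, 0.0244%, 1.07% and 4.43% were called lower in these comparisons, and 0.472%, 0.529% and 4.79% higher. P2ry12, on which the cells were sorted, had 2608, 2055 and 2665 CPM in Normal, 1756, 1558 and 1630 in NMO and 449, 266 and 344 in NMO+CL libraries. It fell in NMO+CL against NMO (-2.22 ± 0.19, adjusted p = 1.73e-05) and against Normal (-2.79 ± 0.20, adjusted p = 4.62e-07). The 7 monocyte genes summed to 27.5 to 58.5, 56.3 to 114 and 50.6 to 102 CPM in Normal, NMO and NMO+CL libraries. Of the 7, 1 was called higher in NMO+CL against Normal, against 4.79% of all tested genes. The 7 neutrophil genes summed to 96.3 to 562, 149 to 459 and 286 to 1318 CPM and the 6 border macrophage genes to 160 to 308, 8.62 to 187 and 214 to 408 CPM, with none called. Astrocyte and oligodendrocyte genes summed to 177 to 211, 98 to 134 and 78.5 to 127 CPM, neuronal genes to 18.8 to 204, 4.43 to 17.5 and 12.8 to 26.7 CPM. Of the tested genes of these lists, 1 of 4 astrocyte and oligodendrocyte genes was called lower in NMO+CL against Normal, against 4.43% of all tested genes. In NMO against Normal 1 of 3 neuronal genes was called lower, against 0.0244%. Lymphocyte genes summed to at most 20.2 CPM in any library, with Cd3e at 0 in all 9. The part of these shifts in the levels of the translation factors was not tested.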

How the data were processed

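Total RNA of sorted microglia was made into QuantSeq 3′ libraries and read as single 75-base reads. Per the study's methods and the submitters' processing notes, the authors aligned the reads with Bowtie2 (mm10) and took counts per gene from unique and multiple alignments with bedtools; the annotation and strand setting are not given in the sources used here. The deposited files hold raw counts for 23282 entries per library, and entries sharing a symbol (79 entries, 35 symbols) were summed. Genes passing filterByExpr (minimum count 10, minimum total 15) were fitted over all 9 libraries with TMM scaling in edgeR 4.0.16 (R 4.3.3, limma 3.58.1), with Benjamini-Hochberg adjustment over 12292 genes. Floors of 3 counts cover counting error only, and reads were not collapsed to molecules.

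The members and gene lists were chosen with earlier results of these data known. The text names every member called in any comparison, the 3 largest rises and falls per comparison without overlap (mean count at least 50), a set fixed by role, and called genes of the list of other translation genes. Genes outside this rule (P2ry12, Ddx3y, Eif1, Eif1ax, Eif3f, Eif3h, Eif3j2, Eif5a2 and the untested members, the promoter genes, Gtpbp2 and Mtif3) were named after their values were seen. Alternatives were DESeq2 1.42.0, limma-voom, RLE or total scaling, no filter, a replicate block and leaving out each library. On simulated counts for NMO+CL against Normal (11702 genes, 200 changed 4-fold), edgeR recovered 120 with 5 false calls, limma-voom 106 with 4 and DESeq2 131 with 43. In NMO against Normal of the same simulated counts, where no gene was changed, they made 0, 0 and 2 calls. The 4-fold change was larger than that of any called member (Eef1g, 3.76-fold), so recovery of smaller changes was not tested. Positions are from GENCODE on GRCm38, the mm10 assembly, and 3′ ends were compared over 500 bases (at least 75 bases, 97% identity).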

Additional observations from a re-analysis of the deposited data

How the results depend on the processing

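The calls in NMO against Normal rest on few genes and on the setting. The 4 translation factors called became 9 with all genes that had a count, 11 with DESeq2, 2 with the replicate block and 1 to 5 when a library was left out. Over all genes tested, 61 calls became 223, 222 and 53 under the first 3 of these settings. In NMO+CL against NMO the 0 became 2 with DESeq2 and stayed 0 when a library was left out, and the 3 past 1.5-fold became 5 with RLE scaling, with all genes that had a count and with DESeq2, and 2 to 7 when a library was left out. In NMO+CL against Normal the 22 calls became 10 to 22 when a library was left out. The replicate numbers did not pair the libraries: deviations of libraries with the same number correlated at -0.0148 to 0.0302, and the block gave 22 calls in NMO+CL against Normal and 0 in NMO+CL against NMO. The median log2 fold change of the members in NMO against Normal was 0.58 with library totals alone, where the median of all tested genes was 0.10. It was 0.42 to 0.50 when a library was left out, 0.081 to 0.24 in NMO+CL against NMO and 0.55 to 0.73 in NMO+CL against Normal. The share of counts held by the members in Normal, NMO and NMO+CL was 0.749%, 1.03% and 1.20% without Rn45s and 0.477%, 0.677% and 0.748% without Eef1a1 and Eif3a. Leaving out a library, an alternative chosen for the shares after seeing the data, gave 0.549 to 0.616%, 0.799 to 0.855% and 0.88 to 0.958%.

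Of 141 gene and comparison pairs with 2115 alternative values, 36 values changed sign, and none of these pairs was called. In NMO against Normal, leaving out a library gave log2 fold changes of -0.14 to 0.37 for Eif2b5, -0.26 to 0.12 for Eif4a2, -0.57 to 0.46 for Eif4ebp2, -0.32 to 0.038 for Eif4g3, -0.032 to 0.26 for Eif5b and -0.60 to 0.00010 for Gfm2. Eif4a2 was 0.075 with library totals alone, and Eif4ebp2 was -0.062 with limma-voom and -0.031 with the replicate block. In NMO+CL against NMO, leaving out a library gave -0.027 to 0.23 for Abce1, -0.19 to 0.75 for Dph1, -0.40 to 0.25 for Eef1a1, -0.071 to 0.58 for Eef1e1, -0.055 to 0.94 for Eif2b1, -0.35 to 0.0045 for Eif2b2, -0.0024 to 0.45 for Eif2b3, -0.056 to 0.22 for Eif2s1, -0.10 to 0.15 for Eif3b, -0.10 to 0.24 for Eif4a1, -0.10 to 0.28 for Eif4e, -0.87 to 0.067 for Eif4ebp2 and -0.082 to 0.27 for Eif6. Eif3b was -0.019 with library totals alone, and Eif4a1 was 0.033 with RLE scaling and 0.033 with DESeq2. The cause of these changes was not tested beyond the fewer libraries or other scaling of each alternative.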
